A study of Mus musculus with 2 samples.

Results

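Genes of circulating blood were followed in a single-cell RNA-seq experiment on the aged mouse hippocampus: Hbb-bs and Alas2, which mark red cells, and Ppbp, Pf4, Itga2b and Gp9, which mark platelets. These 6 members are the rows of the deposited gene table that carry these 6 symbols, 6 of 19059 genes, and each symbol had 1 row in both libraries. The genes were chosen by their counts in these same libraries, per cell class and in cells with few counts, so their levels are given as a description and nothing was tested with them. The control library was made from the pooled hippocampi of 4 C57BL/6 mice kept on chow without tomatidine, and the tomatidine library from 4 C57BL/6 mice whose chow held 0.05% tomatidine, a steroidal alkaloid of tomato plants. In both groups the diet was given for 3 months from an age of 21 months. Mice of both sexes were used in the study, and the sexes in each pool are not given in the sources used here. Fixed cell suspensions were made from flash-frozen tissue, and probes bound to each transcript were counted by unique molecular identifiers (UMIs), short tags that keep PCR copies from being counted again. With 1 library per group there is no replicate, so no p-value is given, and every interval below is a 95% interval for counting error alone.

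Red cells of mammals have no nucleus but keep some of the RNA made in their nucleated precursors, most of it from the alpha and beta globin genes. Platelets are fragments shed by megakaryocytes in the bone marrow, and they too carry RNA without a nucleus, in particular of the chemokines stored in their granules and of the receptors on their surface. Neither is made by brain tissue, so in a dissociated brain sample their RNA can come with blood left in vessels, as whole cells, as cells attached to another cell, or as free RNA that enters any droplet.

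Hbb-bs encodes a beta chain of adult hemoglobin and lies on the minus strand at chr7:103826534-103828096 (mm10, GENCODE vM21). Alas2, at chrX:150547375-150570638, encodes the erythroid enzyme for the first step of heme synthesis. Ppbp (chr5:90768518-90770063) and Pf4 (chr5:90772435-90773383) encode chemokines of platelet granules and are neighbors, with 2371 bases between them on the plus strand. Itga2b (chr11:102453297-102470122, minus strand) encodes the alpha subunit of the platelet fibrinogen receptor, and Gp9 (chr6:87778072-87779768) encodes a subunit of the platelet receptor for von Willebrand factor. No other annotated gene overlaps Hbb-bs, Ppbp, Pf4 or Gp9. Apex2 and Mir3620 on the opposite strand overlap Alas2, and Gm23563 on the same strand overlaps Itga2b. Hbb-bs has a near copy, Hbb-bt, whose coding sequence of 444 bases differs from it at 1 base, so counts of these 2 genes are uncertain between them. The coding sequences of Hba-a1 and Hba-a2 differ at 1 of 429 bases, and the same holds for their counts.

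GATA factors, the transcription factors that both the red cell and the megakaryocyte lineage depend on, recognize sites with the letters GATA. GATAA was searched on both strands in the 250 bases before the start of each member (RefSeq, GRCm38.p6), and 3 of 6 members held it once: Hbb-bs at −209, Alas2 at −86 and Gp9 at −43, counted from the start. Of 32536 different RefSeq windows of this length, 22.5% held it. Ppbp held TATAA on its own strand at −30 and −8, Hbb-bs at −29 and Alas2 at −207, against 15.9% of all windows. The stretches printed here show the neighbors Ppbp and Pf4, which were held by different cell classes, beside the members that held GATAA. Capitals mark GATAA or its reverse complement, and bases that fall inside the GENCODE gene are left out, which leaves too little of Itga2b to show.
Hbb-bs, 82 bases of chr7:103828097-103828178, minus strand: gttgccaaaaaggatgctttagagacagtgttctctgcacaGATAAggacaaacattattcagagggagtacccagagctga
Alas2, 208 bases of chrX:150547167-150547374, plus strand: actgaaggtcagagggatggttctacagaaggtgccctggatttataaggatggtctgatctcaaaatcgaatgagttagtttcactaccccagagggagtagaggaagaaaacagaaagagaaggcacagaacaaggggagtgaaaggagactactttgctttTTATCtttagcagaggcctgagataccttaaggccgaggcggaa
Gp9, 250 bases of chr6:87777820-87778069, plus strand: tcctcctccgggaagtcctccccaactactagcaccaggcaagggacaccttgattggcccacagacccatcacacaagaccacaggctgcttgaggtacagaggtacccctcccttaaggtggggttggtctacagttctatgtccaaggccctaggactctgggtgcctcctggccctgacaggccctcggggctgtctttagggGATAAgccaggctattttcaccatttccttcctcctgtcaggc
Ppbp, 250 bases of chr5:90768268-90768517, plus strand: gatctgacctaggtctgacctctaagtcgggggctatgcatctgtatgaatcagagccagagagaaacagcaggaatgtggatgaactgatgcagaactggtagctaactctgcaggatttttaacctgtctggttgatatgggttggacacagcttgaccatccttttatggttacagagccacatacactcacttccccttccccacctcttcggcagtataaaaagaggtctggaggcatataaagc
Pf4, 250 bases of chr5:90772185-90772434, plus strand: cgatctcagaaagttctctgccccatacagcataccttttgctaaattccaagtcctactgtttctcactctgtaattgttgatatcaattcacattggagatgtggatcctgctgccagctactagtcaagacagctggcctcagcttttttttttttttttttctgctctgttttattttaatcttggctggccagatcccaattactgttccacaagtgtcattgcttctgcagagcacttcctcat

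The deposited matrices held 15912 control cells with 279525565 UMIs and 15185 tomatidine cells with 259059908 UMIs, and 292 cell barcodes occurred in both libraries. After the filters, 15115 control cells (median 7077 UMIs) and 14502 tomatidine cells (median 7408 UMIs) remained, of which 1230 and 1194 were shallow, with fewer than 1500 UMIs. Levels are given in CPM, the UMIs of a gene divided by all UMIs of the same cells and scaled to 1000000. Cell classes were rebuilt by clustering without the members and named by markers. The endothelial-like class held 300 control and 418 tomatidine cells in 1 cluster, 1.98% and 2.88% of the kept cells. All 10 endothelial markers were detected in it, at a summed 8881 and 9649 CPM, and so were all 10 mural cell markers, at 6549 and 7974 CPM. Against the other cells, 8 astrocyte markers were also raised in the cluster, at least 2-fold and in at least 10% of its cells. Whether single cells of the cluster held more than 1 of these sets was not tested.

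Red cell and platelet RNA was concentrated in the endothelial-like cells, which took 1.67% of all kept control UMIs and 1.91% of all kept tomatidine UMIs. They held 45.9% and 49.2% of the Hbb-bs UMIs, 46.5% and 49.2% of the Alas2 UMIs, and 66.7% and 73.2% of the Ppbp UMIs. The other platelet members had smaller shares there, though above the share of all UMIs. Endothelial-like cells held 19.0% and 15.9% of the Pf4 UMIs and 30.1% and 26.0% of the Gp9 UMIs, and other classes held more. A cluster with macrophage and lymphocyte markers held 48.9% and 59.1% of the Pf4 UMIs, and microglia-like cells held 46.0% and 56.9% of the Gp9 UMIs. Itga2b was spread over the classes, with 27.2% and 13.4% of its UMIs in endothelial-like cells.

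**Figure D1:**
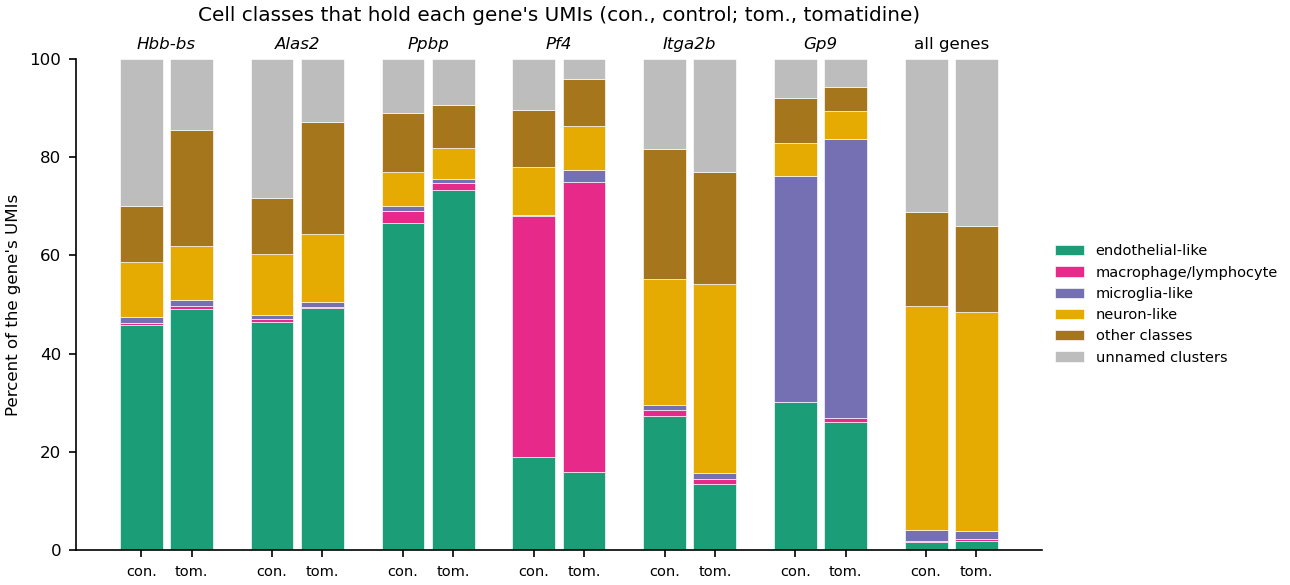
Percent of each gene's UMIs (vertical axis) that lay in each group of cell classes, one bar per gene and library, with all genes at the right. Endothelial-like cells hold 66.7% and 73.2% of the Ppbp UMIs, while the macrophage and lymphocyte cluster holds 48.9% and 59.1% of the Pf4 UMIs and microglia-like cells 46.0% and 56.9% of the Gp9 UMIs.

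In endothelial-like cells every member was lower in the tomatidine library than in the control library. Hbb-bs had 9144 UMIs (2656 CPM) in the control cells and 4662 UMIs (1215 CPM) in the tomatidine cells, a log2 ratio of −1.13 (−1.18 to −1.08). Alas2 had 280 and 160 UMIs, 81.3 and 41.7 CPM, a log2 ratio of −0.96 (−1.25 to −0.68). The ratios of both red cell members lay close together. Ppbp had 194 and 93 UMIs, 56.4 and 24.2 CPM, a log2 ratio of −1.22 (−1.59 to −0.85). Itga2b had 83 and 41 UMIs, 24.1 and 10.7 CPM, a log2 ratio of −1.17 (−1.75 to −0.62). The ratios of this receptor gene and of the chemokine gene Ppbp lay close together as well. Gp9 had 53 and 32 UMIs, 15.4 and 8.34 CPM, a log2 ratio of −0.88 (−1.57 to −0.22). Pf4 had 51 and 35 UMIs, 14.8 and 9.12 CPM, a log2 ratio of −0.70 (−1.36 to −0.05), the smallest of the 6. All 6 members were lower by at least 1.5-fold, as were 3.87% of the 12536 genes with at least 20 UMIs in these cells, and 4.87% were higher by that much. The members were chosen by this comparison among others, so nothing is read from that count. The direction of Pf4 and Gp9 depended on which cells were taken. A marker gate took deposited cells, before the filters, with at least 5 endothelial markers and more of these than of any other marker set. It held 207 control and 294 tomatidine cells, of which 197 and 281 were kept cells of the endothelial-like class. In the gated cells the log2 ratio was 0.62 (−0.31 to 1.60) for Pf4 and 0.010 (−1.08 to 1.11) for Gp9.

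**Figure D2:**
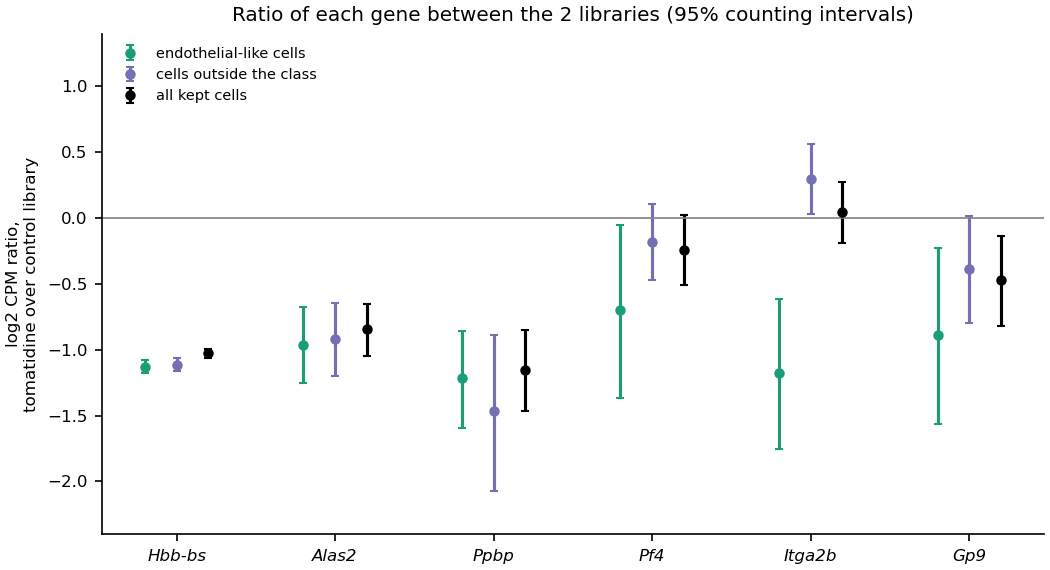
Log2 CPM ratio of the tomatidine over the control library (vertical axis) for each gene in endothelial-like cells, in the kept cells outside that class and in all kept cells, with bars for 95% counting intervals. In endothelial-like cells the points lie between −1.22 and −0.70, while outside them Itga2b lies at 0.30 and Pf4 at −0.18.

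The ratios rested on few cells. In the control endothelial-like cells 148 of 300 held at least 1 Hbb-bs UMI (49.3%, 43.5 to 55.1), but the 10 cells with the most held 60.8% of its UMIs, and the highest had 1027. In the tomatidine library 133 of 418 were positive (31.8%, 27.4 to 36.5), the top 10 held 70.6%, and the highest had 843. The concentration was stronger for the platelet members: the top 10 cells held 90.7% and 91.4% of the Ppbp UMIs, from 19 and 18 positive cells. Median depth also differed, at 6319 UMIs in control and 4501 in tomatidine endothelial-like cells, and with each cell thinned to 500 UMIs the expected share of Hbb-bs positive cells was 21.5% and 11.3%. For excitatory neuron-like cells the thinned shares were 1.25% and 0.84%, with median depths of 14134 and 13108 UMIs and unthinned shares of 21.7% and 15.7%. Whether these neurons make globin RNA themselves was not tested. Counting intervals treat UMIs as independent, which UMIs of 1 cell are not, so with this concentration they are too narrow for a difference between mice. Without the 10 endothelial-like cells with the most UMIs of the gene in each library, the log2 ratio was −1.57 for Hbb-bs and −1.44 for Alas2, while Pf4 turned to 0.53. For Pf4 the cells removed held 46 of 51 control and 27 of 35 tomatidine UMIs, so its ratio then rests on very few UMIs.

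**Figure D3:**
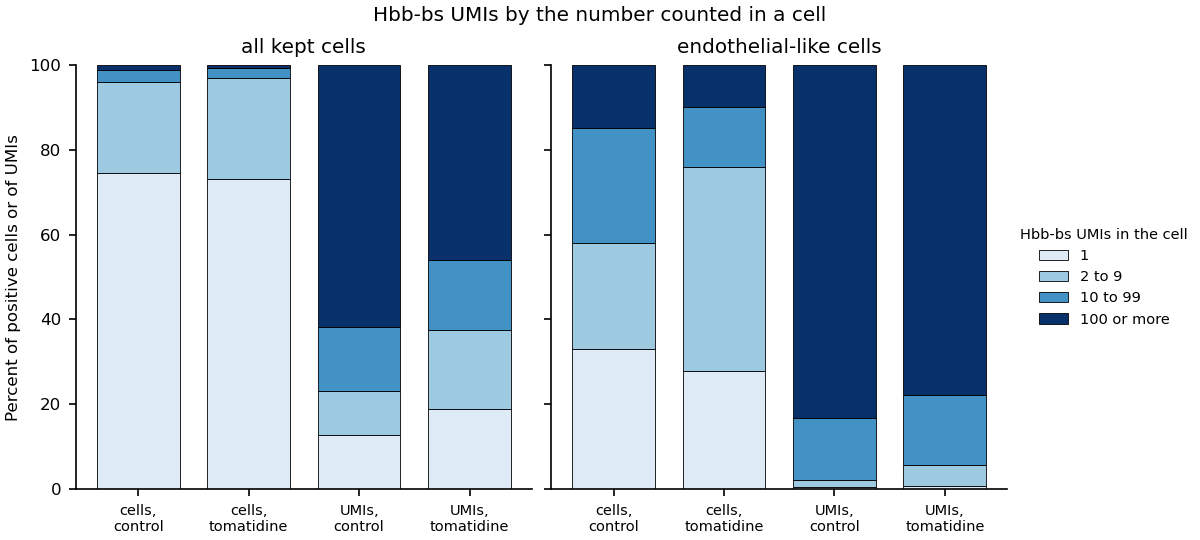
Percent of Hbb-bs positive cells (left bars of each panel) and of Hbb-bs UMIs (right bars) by the number of Hbb-bs UMIs in the cell, in all kept and in endothelial-like cells. Among all kept cells, 35 control and 17 tomatidine cells with 100 UMIs or more hold 12333 of 19931 and 4351 of 9481 UMIs.

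Across all kept cells the red cell members and Ppbp were also lower in the tomatidine library, whereas Itga2b was level. Hbb-bs had 19931 UMIs in 3400 control cells (22.5%) and 9481 in 2436 tomatidine cells (16.8%), a log2 ratio of −1.03 (−1.06 to −0.99). Alas2 had 602 and 325 UMIs (−0.85, −1.04 to −0.65), and Ppbp 291 and 127 (−1.15, −1.46 to −0.85). Gp9 had 176 and 123 UMIs (−0.47, −0.82 to −0.13) and Pf4 268 and 220 (−0.24, −0.50 to 0.02). Itga2b had 305 UMIs in each library, a log2 ratio of 0.04 (−0.19 to 0.28), but −0.68 as a mean over cells, which gives shallow cells more weight. Of 15710 genes with at least 20 UMIs, 3.29% were lower by 1.5-fold or more and 4.32% higher, and 3 of the 6 members were among those lower. Since the members were chosen by their counts in these libraries, nothing is read from that count either. Without the endothelial-like cells the ratio was −1.11 (−1.16 to −1.07) for Hbb-bs, −0.92 (−1.20 to −0.64) for Alas2 and −1.46 (−2.07 to −0.89) for Ppbp.

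Hbb-bs was counted in every class, with the lower level in the tomatidine library in most of them. The unnamed clusters together held 5954 control and 1368 tomatidine UMIs, 92.1 and 19.99 CPM, a log2 ratio of −2.20 (−2.29 to −2.12). It was also lower in oligodendrocyte-like cells (45.8 against 23.8 CPM, log2 ratio −0.94, −1.12 to −0.76), in microglia-like cells (59.5 against 30.9 CPM, −0.95, −1.28 to −0.62) and in oligodendrocyte precursor-like cells (53.6 against 28.0 CPM, −0.94, −1.39 to −0.51), and the few mural-like cells had 29 against 6 UMIs (−2.38, −3.94 to −1.09). Neuron-like classes had the lowest levels in the tomatidine library, and excitatory and subcortical neuron-like cells also in the control library. Excitatory neuron-like cells went from 17.5 to 12.3 CPM (−0.51, −0.66 to −0.36) and subcortical neuron-like cells from 23.3 to 10.8 CPM (−1.11, −1.32 to −0.90). The subcortical cells of the libraries sat in different clusters: the cluster led by Pou4f2 held 183 control and 676 tomatidine cells, that led by Atp2a1 356 and 173, and that led by Abhd12b 278 and 233, with median depths over the class of 13755 and 20660 UMIs. The part of depth in this ratio was not tested. In interneuron-like cells (47.5 against 12.6 CPM) a single control cell held 225 of 713 UMIs. Astrocyte-like cells had 75.9 and 77.5 CPM (0.03, −0.11 to 0.17), where 1 tomatidine cell held 330 of 933 UMIs. Ependymal-like cells (58.2 and 66.5 CPM, 0.19, −0.13 to 0.52), choroid plexus-like cells (37.7 and 56.5 CPM, 0.58, −0.12 to 1.23, from 357 and 33 cells) and the macrophage and lymphocyte cluster (113 and 91.1 CPM, −0.31, −0.88 to 0.24) did not differ beyond counting error.

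Fibroblast-like cells of the meninges or vessel sheath went the other way. Hbb-bs had 203 UMIs in 281 control cells and 691 UMIs in 525 tomatidine cells, 142 and 289 CPM, a log2 ratio of 1.03 (0.80 to 1.26). The share of positive cells was alike, 34.9% (29.3 to 40.8) and 35.2% (31.1 to 39.5), and the highest cells held 21 and 153 UMIs. Alas2 in these cells had 13 and 28 UMIs, 9.07 and 11.7 CPM.

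**Figure D4:**
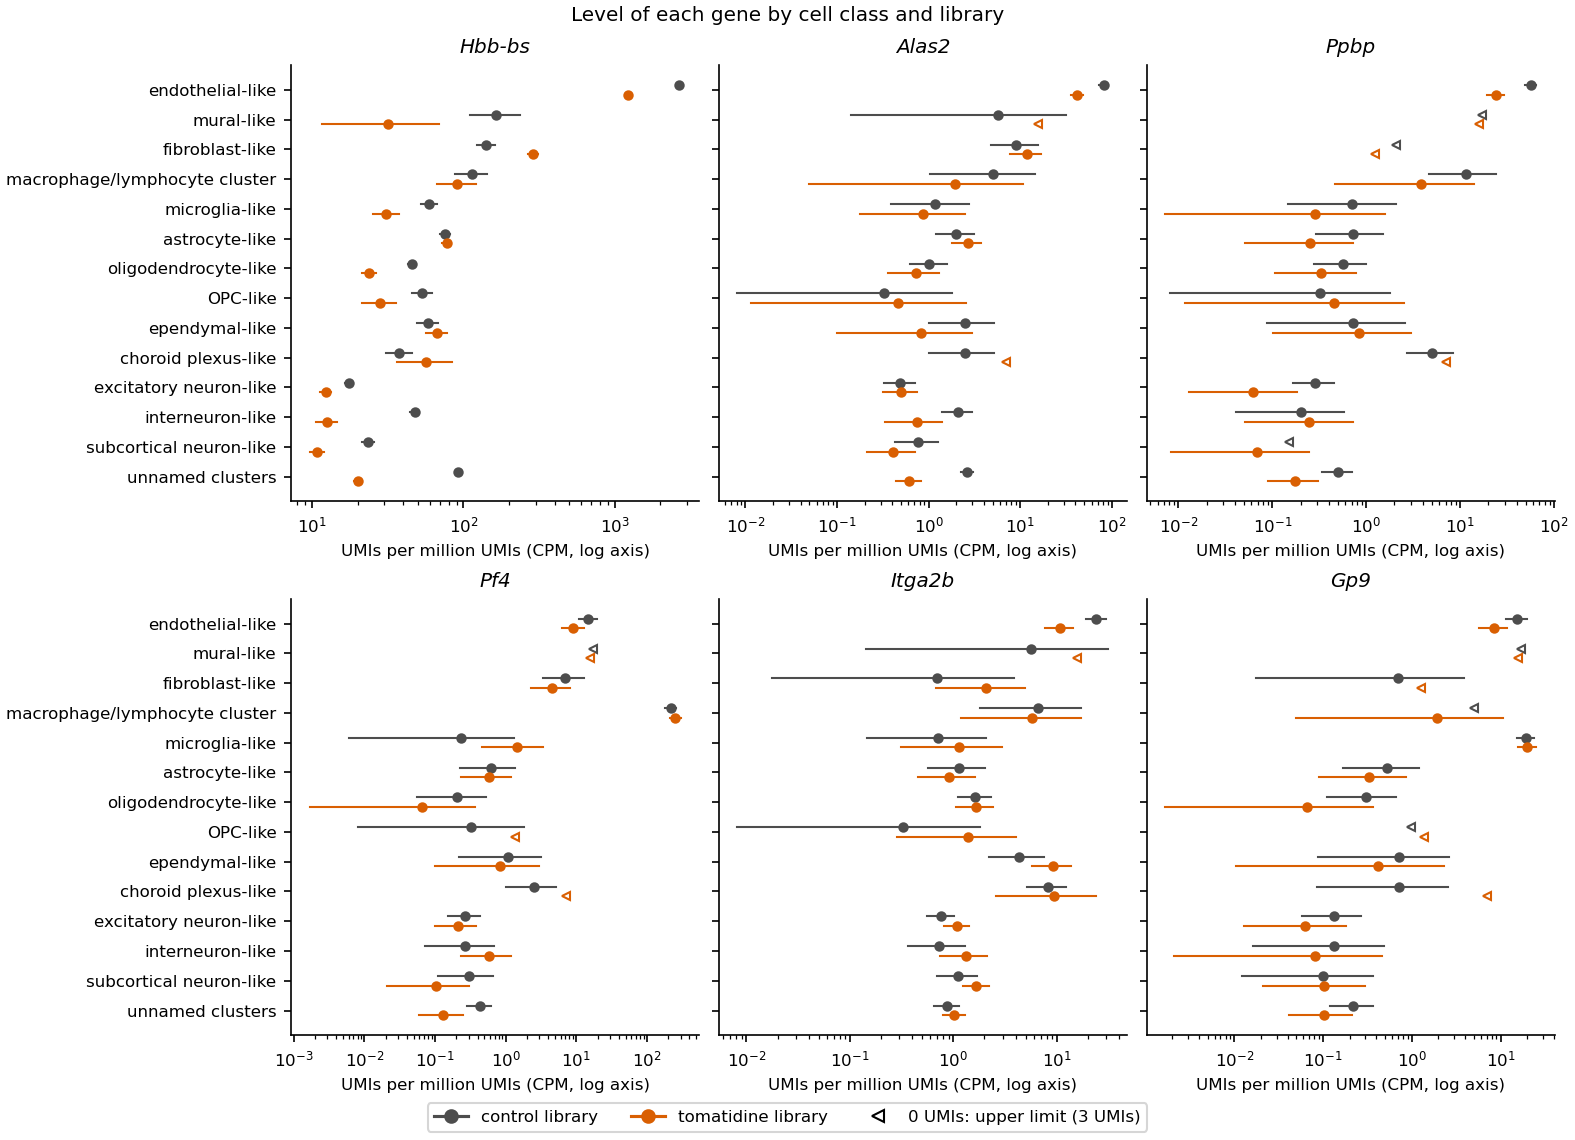
CPM of each gene (horizontal log axis) by cell class (vertical axis) in the control and tomatidine libraries, with 95% counting intervals and open triangles at the level that 3 UMIs would give where none was counted. Hbb-bs, Alas2 and Ppbp are highest in endothelial-like cells, Pf4 in the macrophage and lymphocyte cluster at 218 and 252 CPM, and Gp9 reaches 19.1 and 20.03 CPM in microglia-like cells.

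The other abundant globin genes were counted beside Hbb-bs in every class, in proportions that varied. Per Hbb-bs UMI there were 0.446 UMIs of Hba-a2, an alpha globin gene, in all kept control cells and 0.503 in the tomatidine cells. The endothelial-like cells had 0.468 and 0.495, microglia-like cells 0.413 and 0.426, and fibroblast-like cells 0.453 and 0.515. Where a class had at least 100 Hbb-bs UMIs in a library, the ratio ran from 0.373 in control oligodendrocyte-like cells to 0.590 in tomatidine excitatory neuron-like cells, and in the unnamed clusters it was 0.420 and 0.540. The macrophage and lymphocyte cluster had 0.368 and 0.340, from 68 and 47 Hbb-bs UMIs. Hbb-bt, the near copy of Hbb-bs, stood at 0.184 and 0.176 per Hbb-bs UMI in all kept cells, and ran from 0.124 in tomatidine interneuron-like to 0.259 in control ependymal-like cells under the same minimum. Alas2 gave 3.02 UMIs per 100 of Hbb-bs in the control library (2.78 to 3.28) and 3.43 in the tomatidine library (3.06 to 3.83). Over 28 points, 14 classes in each of 2 libraries, the genes whose log2(CPM + 1) pattern was most like that of Hbb-bs were Hbb-bt (Pearson r = 0.99), Hba-a2 (0.99) and Alas2 (0.92), among 14631 genes. The points share libraries, and the endothelial-like class lies far above the rest.

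In a small number of cells Hbb-bs took a large share of the UMIs. In 53 control and 21 tomatidine cells Hbb-bs made up at least 1% of all UMIs, and these cells held 60.4% and 43.3% of the Hbb-bs UMIs of their library. The highest share in a cell was 38.9% in the control and 17.7% in the tomatidine library. Of them, 27 and 11 were endothelial-like, 18 and 4 lay in unnamed clusters, and 18 and 7 were shallow. Besides globins, genes of the red cell were among the most raised in them against other cells: Slc4a1, the anion exchanger of the red cell membrane (36 and 7 UMIs in the control and tomatidine cells), and Epb42, encoding a membrane skeleton protein (13 and 4). Apol11b (45 and 8 UMIs) ranked above both of these, and Isg20 and Tent5c were also among the 10. The platelet gene Clec1b was there as well, with 17 and 0 UMIs, but in only 2 of the 74 cells of both libraries. Slc4a1 was in 9 and Epb42 in 7 of the 74.

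Most Ppbp UMIs, but not most Ppbp positive cells, came with other platelet members. Another platelet member was present in 32 of 73 and 22 of 50 Ppbp positive cells (43.8% and 44.0%), and 48 and 38 of the positive cells held a single Ppbp UMI. Cells with UMIs of at least 2 of the 4 platelet members numbered 32 of 15115 in the control and 27 of 14502 in the tomatidine library, and 9 and 4 cells held all 4. These cells held 248 of 291 and 97 of 127 Ppbp UMIs, or 85.2% and 76.4%. Of the cells, 15 and 14 were endothelial-like and 11 and 4 shallow. At least 3 markers of border macrophages, described below, were held by 1 and 7 of the cells. Their median depth was 3971 and 9796 UMIs, and the part of depth in these counts was not tested. Outside the members, platelet genes were among the most raised in them: Tubb1, the beta tubulin of the platelet marginal band (178 and 108 UMIs), Gp1ba, the partner of Gp9 in the von Willebrand factor receptor (19 and 5), Mmrn1, encoding a granule protein (18 and 7), and Clec1b, encoding the receptor CLEC-2 (56 and 9). Slc6a4, the serotonin transporter, had 20 and 3 UMIs, and Rgs18, Nfe2, Cd226 and Alox12 were also among the 10. Hbb-bs was found in 46.9% and 55.6% of these cells and in 22.4% and 16.7% of the other cells.

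Pf4, although it lies beside Ppbp, was mostly counted in other cells. In the macrophage and lymphocyte cluster (153 control and 131 tomatidine cells) it had 131 and 130 UMIs, 218 and 252 CPM, a log2 ratio of 0.21 (−0.15 to 0.57), and Ppbp had 7 and 2 UMIs there. Among 71 control and 79 tomatidine cells with at least 3 markers of border macrophages, the macrophages of the brain's vessels and coverings, 70.4% and 62.0% held Pf4, while Ppbp was in 2 and 5 of them and Gp9 in none, which allows shares of cells with a Gp9 UMI of up to 4.23% and 3.797% at median depths of 4393 and 3358 UMIs. The limit does not bear on cells that express the gene without a UMI. Those cells held 54.5% and 64.1% of the Pf4 UMIs. Another platelet member was present in 19 of 124 and 18 of 114 Pf4 positive cells (15.3% and 15.8%). The genes most like Pf4 across classes were Plac8 (r = 0.97), Cbr2 (0.96) and Cd163 (0.96), of which Cbr2 and Cd163 are markers of border macrophages.

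Gp9 was at least as high in microglia-like cells as in endothelial-like cells. It had 81 UMIs in 67 of 992 control cells (6.75%) and 70 UMIs in 58 of 871 tomatidine cells (6.66%), 19.1 and 20.03 CPM, a log2 ratio of 0.07 (−0.42 to 0.55). No microglia-like cell held more than 3 UMIs. The same cells had 1 and 5 UMIs of Pf4, and 3 and 4 of Itga2b. In oligodendrocyte-like cells, which should lack the gene, Gp9 was in 0.196% and 0.0419% of cells with median depths of 5334 and 4906 UMIs, against 3311 and 3097 in microglia-like cells, and thinned to 500 UMIs the shares were 1.06% and 1.20% in microglia-like and 0.0263% and 0.00372% in oligodendrocyte-like cells. Across classes the genes most like Gp9 were Hhex (r = 0.87), Arap3 (0.84) and AI661453 (0.83).

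Itga2b was spread thinly. Of its positive cells, 170 of 197 and 204 of 237 held a single UMI. Excitatory neuron-like cells had 45 and 52 UMIs, 0.757 and 1.09 CPM, and subcortical neuron-like cells 22 and 49 UMIs, 1.11 and 1.67 CPM. The highest level was that of endothelial-like cells, 24.1 and 10.7 CPM from 83 and 41 UMIs. Levels above those of neurons also came with choroid plexus-like cells, 8.18 and 9.42 CPM from 23 and 4 UMIs, and with ependymal-like cells, 4.31 and 9.15 CPM from 12 and 22 UMIs. None of the border macrophage cells of the control library and 2 of the tomatidine library held it. The difference between the lower level in the tomatidine endothelial-like cells and the ratio of 0.30 (0.03 to 0.56) outside them was not tested.

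Over all kept cells, all 6 members were higher per UMI in shallow cells than in deeper ones, in both libraries. The order differed in some classes. In tomatidine endothelial-like cells Hbb-bs had 415 CPM in shallow and 1231 CPM in deeper cells, and Alas2 13.4 CPM (1 UMI) and 42.3 CPM. The platelet members were higher in the shallow cells of that class, and so was Hbb-bs in its control cells, at 10416 and 2548 CPM. For Hbb-bs the level was 1235 CPM in the control shallow cells and 89.4 CPM in the deeper ones, a log2 ratio of 3.79 (3.71 to 3.86), and 417 against 45.1 CPM in the tomatidine library, 3.21 (3.08 to 3.34). Ppbp had the largest ratio, 5.07 (4.60 to 5.51) and 5.23 (4.51 to 5.90), with 39.4 against 1.17 CPM and 19.6 against 0.522 CPM. Few shallow cells carried these UMIs, so the intervals are too narrow here as well. The top 10 shallow cells held 73.6% and 73.2% of the shallow Hbb-bs UMIs. Ppbp was in 12 control and 7 tomatidine shallow cells, and Itga2b in 10 and 3. The ratio was 3.67 and 3.40 for Alas2, 3.45 and 3.83 for Pf4, 3.97 and 2.20 for Itga2b (0.90 in the tomatidine library without its highest shallow and deeper cell), and 4.11 and 4.45 for Gp9. Of all genes with at least 20 UMIs, 21.1% in the control and 21.9% in the tomatidine library were at least 1.5-fold higher in shallow cells. The members were chosen with this split in the rule, so nothing is read from their count. Just under the limit, in cells with 1000 to 1500 UMIs, Hbb-bs had 1257 CPM in the control and 210 CPM in the tomatidine library, and just above it, with 1500 to 2000 UMIs, 1076 and 495 CPM.

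The share of cells with an Hbb-bs UMI was higher in the deepest than in the shallowest cells, and its level lower, though the level did not fall at every step in either library, nor did the share rise at every step in the tomatidine library. The share went from 13.7% of control cells with 500 to 1000 UMIs to 29.0% of those with over 32000, and from 9.74% to 22.9% in the tomatidine library, and the level was 1192 and 29.3 CPM at these ends in the control and 757 and 11.9 CPM in the tomatidine library. In between, the control level went from 64.4 CPM at 8000 to 16000 UMIs up to 149 CPM at 16000 to 32000.

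The direction of Hbb-bs between the libraries differed in some depth ranges, where a few cells held most of its tomatidine UMIs. In cells with 4000 to 8000 UMIs Hbb-bs was higher in the tomatidine library, 101 CPM (96.7 to 106) against 79.0 CPM (75.1 to 83.0). With 8000 to 16000 UMIs it was 70.0 CPM (67.2 to 72.8) against 64.4 CPM (61.7 to 67.2). The share of positive cells was lower in the tomatidine library in both ranges, 15.0% against 20.5% and 17.9% against 23.9%. The 10 highest cells held 63.3% and 63.0% of the tomatidine UMIs there and 29.8% and 47.5% of the control UMIs. Those cells held 1212 of 1914 tomatidine and 473 of 1586 control UMIs in the first range, and 1524 of 2420 and 1026 of 2158 in the second. The other cells of both ranges held fewer Hbb-bs UMIs in the tomatidine than in the control library. No interval was taken for the other cells. In the other depth ranges the level was lower in the tomatidine library. Shallow cells had lower Hbb-bs in the tomatidine library (1567 against 489 UMIs, −1.56, −1.71 to −1.42) and lower Itga2b (27 against 8 UMIs, −1.64, −2.99 to −0.46). Alas2 (44 against 19, −1.10, −1.95 to −0.29) and Ppbp (50 against 23, −1.004, −1.78 to −0.26) were also lower. Pf4 had 17 UMIs in each (0.12, −0.94 to 1.18), and Gp9 17 and 14 (−0.16, −1.30 to 0.94).

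**Figure D5:**
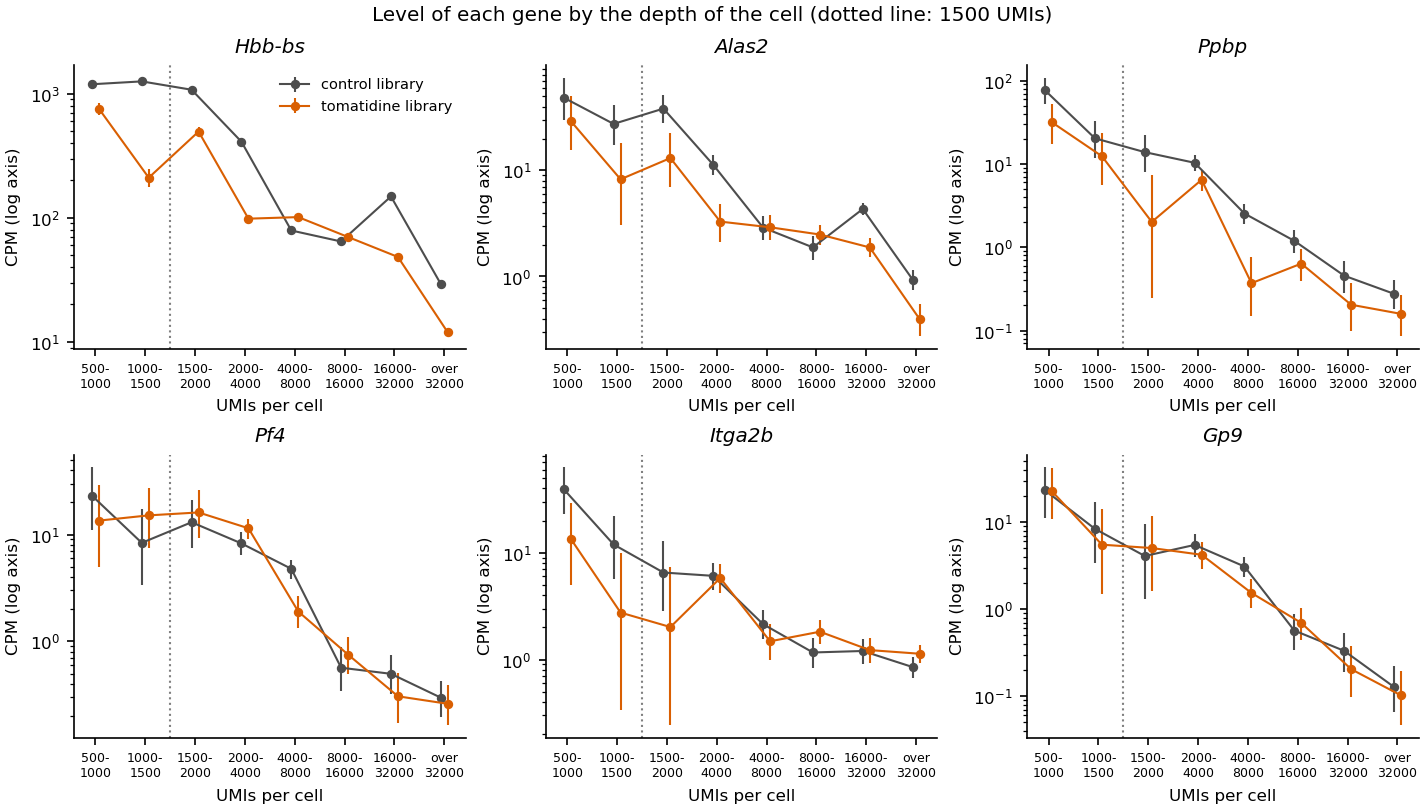
CPM of each gene (vertical log axis) by the number of UMIs in the cell (horizontal axis) in the control and tomatidine libraries, with 95% counting intervals and a dotted line at 1500 UMIs. Hbb-bs lies at 1192 CPM in the shallowest and 29.3 CPM in the deepest control cells and at 757 and 11.9 CPM in the tomatidine cells. Between 4000 and 16000 UMIs the tomatidine library lies above the control library, where the 10 highest cells of each range hold 63.3% and 63.0% of its Hbb-bs UMIs.

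Other genes of the same lineages were counted from lists. In endothelial-like cells all 3 of the other globin genes with at least 20 UMIs (of 6 listed) were at least 1.5-fold lower in the tomatidine library, Hba-a2 (4278 against 2306 UMIs, log2 ratio −1.05), Hbb-bt (1582 against 865, −1.03) and Hba-a1 (18 against 9, −1.16). The list's median was −1.05, while that of all genes was 0.02. The counts of the lists stand against 3.87% of all genes lower and 4.87% higher by 1.5-fold in endothelial-like cells, and 3.29% and 4.32% in all kept cells. Over all kept cells 2 of 3 were lower, and Hba-a1, with 176 and 209 UMIs mostly as single UMIs, stood at 0.29. Of 8 measured genes of the red cell membrane and erythroid cells (of 21 listed), 2 were lower and none higher, with a median of −0.35: Slc4a1 (24 against 4 UMIs, −2.74) and Slc25a37, the mitochondrial iron importer (154 against 108, −0.67). Over all kept cells 3 of 16 were lower and 3 higher, with a median of 0.02, from Epb42 (56 against 13 UMIs, −2.06) to Tspo2 (24 against 79, 1.76).

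None of the 10 measured heme synthesis genes passed 1.5-fold in endothelial-like cells, where their median was −0.07, or in all kept cells, where it was 0.02. They include Fech, the last enzyme of the pathway (345 against 290 UMIs in endothelial-like cells, −0.41), and Alas1, the housekeeping counterpart of Alas2 (955 against 1032, −0.04). Of 15 measured platelet and megakaryocyte genes (of 22 listed), 4 were lower and 1 higher in endothelial-like cells, with a median of −0.43. The lowest ratio was that of Clec1b (53 against 9 UMIs, −2.71), and P2rx1, an ATP receptor, was higher (31 against 55, 0.67). The most abundant gene of the list was Ctla2a (1186 against 953 UMIs, −0.47, −0.60 to −0.35). Over all kept cells Ctla2a had 1443 and 1182 UMIs, and whether platelets or endothelium gave them was not tested. Vwf (885 against 1113 UMIs, 0.17) and Pdgfb (964 against 1252, 0.22), which endothelium also expresses, stood slightly above 0. Over all kept cells 5 of 19 were lower and none higher, with a median of −0.11, and the lowest was F5 (2980 against 471 UMIs, −2.62). Choroid plexus-like cells numbered 357 and 33, and their part in the F5 ratio was not tested. Of 6 measured erythroid and megakaryocyte transcription factors (of 10 listed), none was lower in endothelial-like cells and Runx1 was higher (5 against 18 UMIs, 1.69), with a median of 0.29. Over all kept cells 1 of 8 was lower, Nfe2 (34 against 16 UMIs, −1.04), and 3 were higher, led by Tal1 (768 against 2046, 1.46). Only 93 and 124 of these Tal1 UMIs lay in endothelial-like cells. The unnamed cluster led by Sox14 and Gata3 held 179 control and 517 tomatidine cells, and its part in the Tal1 ratio was not tested.

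Markers of white blood cells were also counted in the endothelial-like cells. The 10 neutrophil markers summed to 252 UMIs in the control and 141 in the tomatidine library, 73.2 and 36.7 CPM, but 244 and 135 of these UMIs were Lcn2, a secreted iron carrier protein that is not particular to neutrophils. Camp, Mmp8, Elane and Mpo were at 0 in both libraries, Ltf in the control library, and Ngp and Retnlg in the tomatidine library. The summed T or NK cell markers had 11.3 and 7.30 CPM in endothelial-like cells (7 and 4 of 8 detected) against 11.1 and 9.79 CPM in all kept cells. The B cell markers had 61.6 and 56.8 CPM (6 of 6 in each), against 56.2 and 47.7 CPM in all kept cells, and 162 of 212 and 138 of 218 UMIs were Ighm. The border macrophage markers, which bear on Pf4, had 126 and 180 UMIs, 36.6 and 46.9 CPM (7 and 8 of 8, with Folr2 at 0 in the control library), against 14.8 and 15.7 CPM in all kept cells. The part of the blood left in the tissue in these values was not tested, and with 1 library per group a difference between the groups and one in the making of the libraries cannot be told apart.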

How the data were processed

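Single-cell RNA-seq was performed on hippocampus from 1 control and 1 tomatidine pool. The authors aligned the reads to mm10 with Cell Ranger 8.0.0, as the submitters' processing notes have it (the matrix header names 7.1.0), and deposited filtered matrices of counts, whole numbers of UMIs for each gene in each cell, not normalized. The members and the gene lists were chosen with earlier results of these data known.

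Cells were kept from the counts by thresholds the study's methods give for integration: a minimum of 500 UMIs, more than 250 genes, a complexity (log10 genes divided by log10 UMIs) over 0.8 and less than 20% of UMIs from mitochondrial genes. This left out 489 and 387 cells, nearly all by the complexity. A further passage of the methods names an upper limit of 6000 genes and a lower mitochondrial limit; the limit of 6000 genes was run as an alternative. Scrublet (scanpy 1.11.5) called 0 and 2 doublets by its own threshold, so the 2% of cells with the highest scores were removed, 308 and 296. Integration used RPCA, and clustering was run with Seurat 5.3.0 (R 4.3.3) with 2000 variable genes, 30 components and resolution 0.8, without the members, the listed genes and sex-linked genes. A marker was raised at 2-fold or more and in at least 10% of a cluster. Each cluster was named after the class whose raised markers had the highest log2 folds, summed and divided by its number of markers, if at least 3 were raised and no other class had more markers among the 10 leading genes. This rule was revised after the clusters were seen, and 1 further cluster was set as unnamed by hand, which left 10 of 35 unnamed. One of these is described separately by its macrophage and lymphocyte genes, and the others are counted together as unnamed. Names are rebuilt and are not the study's.

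Intervals at 95% are exact Poisson for sums of UMIs, Clopper-Pearson for shares and exact conditional binomial for log2 ratios of CPM. They cover counting error and say nothing of the spread between mice. Where no UMI was counted, the limit is that of 3 counts. Thinned shares are expected shares with each cell reduced to 500 UMIs. Listed genes needed 20 UMIs over both libraries. The genes named are the 6 members, and of each list at most the 4 most abundant, the highest and the lowest by ratio and those behind a small count, the 3 genes most like a member across classes (at least 100 UMIs, pseudocount 1) and the 10 leading genes of cells rich in Hbb-bs or with at least 2 platelet members. Genes that were not in the tables used are not analysed here. Some of the leading genes are not reported here. The interval calculation was tested on simulated data. The alternatives covered the filters, doublet removal, resolution, integration, a marker gate, scaling by TMM and RLE (edgeR 4.0.16, used for these factors alone), the depth limit and the removal of single cells. Python 3.11.15, numpy 2.4.6, scipy 1.17.1 and pandas 2.3.3 were used.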

Additional observations from a re-analysis of the deposited data

Results flagged for a closer look

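Hbb-bs in fibroblast-like cells went opposite to endothelial-like cells, with a log2 ratio of tomatidine over control of 1.03 (0.80 to 1.26) from 203 and 691 UMIs. Itga2b in ependymal-like cells also went opposite to endothelial-like cells, with a log2 ratio of 1.09 (0.0085 to 2.23) from 12 and 22 UMIs. Those UMIs lay in 5 control and 9 tomatidine cells, with up to 6 in a cell of each library. In both cases 1 library stands for each group, and the difference between the classes was not tested. In the cells that were removed as doublets, Itga2b was higher in the tomatidine library, with 3 UMIs in 308 control cells and 15 in 296 tomatidine cells, a log2 ratio of 2.43 (0.60 to 4.86). All members and named classes were scanned for such results, with no allowance for the number of comparisons. Removed cells were flagged only where the tomatidine library was higher.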

How the results depend on the processing

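The lower Hbb-bs, Alas2, Ppbp and Itga2b in tomatidine endothelial-like cells kept their direction in every alternative that was run, with log2 ratios from −1.74 to −0.92 for Hbb-bs, and TMM or RLE scaling, the other resolutions, no integration and no doublet removal moved no ratio in endothelial-like cells beyond its counting interval. No paired analysis was possible because each group has 1 library, and for the same reason no library could be left out. Each platelet member had under 200 UMIs per library in endothelial-like cells, and Alas2 had 280 and 160, which limits their precision. Removing 10 cells or the endothelial-like class was chosen after seeing the data. The cause of each shift was not tested.

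In endothelial-like cells, the upper limit of 6000 genes per cell gave log2 ratios of −1.31 for Hbb-bs, −1.33 for Alas2 and −1.55 for Pf4. A mean over cells gave −1.74, −1.76 and −1.73 for the same genes. The marker gate gave −0.92 for Hbb-bs and turned Pf4 to 0.62 and Gp9 to 0.010, and cells with at least 1500 UMIs gave −1.05 for Hbb-bs. Without the highest cell of each library Hbb-bs stood at −1.24 and Ppbp at −1.60. Without the 10 highest, Hbb-bs stood at −1.57, Alas2 at −1.44 and Itga2b at −2.75, and Pf4 turned to 0.53. The cells removed held 77 of 83 control and 40 of 41 tomatidine Itga2b UMIs, and 46 of 51 and 27 of 35 Pf4 UMIs. The ratios of Itga2b and Pf4 without them therefore rest on very few UMIs.

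Over all kept cells, Hbb-bs stood at −0.95 with all deposited cells, −1.07 with RLE scaling and −1.08 without the highest cell. A mean over cells gave −1.33 for Hbb-bs, −1.20 for Alas2 and −0.68 for Itga2b. Without endothelial-like cells Hbb-bs stood at −1.11, Ppbp at −1.46 and Itga2b at 0.30, and without the 10 highest cells Itga2b stood at 0.31.

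Taken over all classes together, every ratio of shallow over deeper cells stayed above 0. With the limit of 6000 genes it was 2.92 in the control and 2.31 in the tomatidine library for Hbb-bs, 2.78 and 2.61 for Alas2, 3.93 and 4.10 for Ppbp, 2.30 and 2.62 for Pf4, and 2.92 and 3.22 for Gp9. With all deposited cells it was 4.18 and 3.52 for Hbb-bs, and without the highest cells 3.54 and 2.88 for Hbb-bs and 0.90 for Itga2b in the tomatidine library. With a limit of 1000 UMIs it was 3.66 and 4.05 for Hbb-bs and 4.85 and 5.32 for Gp9. In the control library it was then 5.93 for Ppbp, 4.21 for Pf4 and 4.82 for Itga2b, and in the tomatidine library 4.23 for Alas2. With a limit of 2000 UMIs it was 3.40 for Hbb-bs and 4.49 for Ppbp in the tomatidine library.

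With no minimum beyond 1 UMI in each library, the genes at least 1.5-fold lower in endothelial-like cells numbered 8 in place of 4 for the platelet list, 4 in place of 2 for the red cell membrane and erythroid list, and 1 in place of 0 for the transcription factors, which was also 1 with a minimum of 10 UMIs. Over all kept cells the transcription factors went from 1 to 2.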

Other observations

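The barcodes that failed the filter were deep, with medians of 121431 and 119244 UMIs, and they were poor in red cell RNA. Hbb-bs had 318 UMIs in 489 control barcodes and 182 in 387 tomatidine barcodes, 4.83 and 3.498 CPM, and was found in 39.3% and 30.7% of them. Alas2 had 5 and 2 UMIs there, and Ppbp 5 and 4.

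Counts of the alpha globin genes are uncertain between them, since their coding sequences differ at 1 base. Hba-a1 had 176 UMIs over 153 control cells and 209 over 185 cells of the tomatidine library, at most 3 and 4 in a cell, while Hba-a2 had 8880 and 4767 UMIs with at most 479 and 461. In shallow cells Hba-a1 had 3 UMIs in each library, where Hba-a2 had 608 and 189.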
